A study of Mus musculus with 24 samples.

Results

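The genes described here act in storing fat as droplets inside cells, and many of them are used as markers of a fatty liver. They were taken as all rows of the count table whose gene symbol was 1 of 10 names: Plin2, Plin3, Plin4, Plin5, Cidea, Cideb, Cidec, Cd36, Mogat1 and Hsd17b13. All 10 were found, each as a single row among 55421 genes, and all 10 passed the filter on low counts that left 13583 genes to be tested. RNA-seq of polyA RNA was analysed from hepatocytes isolated from 24 male mice in 4 groups of 6: young mice on normal diet (young ND) or high-fat diet (young HFD) and old mice on the same diets (old ND and old HFD). By the sample labels, young mice were C57BL/6N of 6 months, old mice were C57BL/6J of 24 months, the high-fat diet was TestDiet 58Y1, the normal diet was Teklad chow, and each diet was given for 9 weeks. Age and substrain therefore cannot be told apart in any old against young comparison. The cells were obtained by collagenase perfusion of the liver and purified on a Percoll gradient.

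Fat is kept in hepatocytes as triglyceride droplets under a single layer of phospholipid, and proteins bound to that surface decide how fast the store is filled, merged and broken down. Perilipins coat the droplet and control the access of lipases, CIDE proteins sit where droplets touch and move lipid from the smaller to the larger droplet, and enzymes and carriers such as Mogat1 and Cd36 bring in and esterify the fatty acids. In a lean liver Plin2, Plin5 and Cideb are the usual members, while Cidea, Cidec, Plin4 and Mogat1 are better known from fat tissue and from steatotic liver.

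A high-fat diet went with higher RNA of the fatty acid carrier Cd36, the acyltransferase Mogat1 and the perilipin Plin4 in young mice, by 2.30-fold, 3.43-fold and 2.75-fold. Mogat1 and Plin4 were also higher on the high-fat diet in old mice, by 5.35-fold and 2.31-fold. Cidea, a droplet-fusion protein best known from brown fat, was 6.53-fold higher in old than in young mice on normal diet and 5.21-fold higher in old than in young mice on high-fat diet. Plin3 differed by at most 1.20-fold and Cideb by at most 1.46-fold in the 5 pairs of groups compared, and Plin2, Plin3, Plin5, Cideb and Hsd17b13 passed the test in no comparison (edgeR quasi-likelihood test, adjusted p under 0.05).

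Total counts ran from 9200332 to 22185069 a mouse, and each of the old HFD totals was below every other total. Libraries came from 2 batches by the labels, 3 mice of each group in each batch except for old ND, with 2 in batch 1 and 4 in batch 2. Hepatocyte markers summed to between 59297 and 170430 CPM, or counts scaled to a common library size, in all 24 mice. RNA of other liver cells was present too: the summed CPM of 11 macrophage markers ran from 1.75 to 80.5 in young ND mice, from 15.2 to 194 in young HFD mice, from 61.3 to 1242 in old ND mice and from 87.9 to 651 in old HFD mice. In such bulk samples fewer cells of a type and less RNA per cell cannot be told apart.

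By CPM per kb of exon, Hsd17b13 and Plin2 were the most abundant members in every group and Plin4 or Mogat1 the least. In young ND, the mean CPM per kb was 168 for Hsd17b13 and 140 for Plin2, followed by Cideb (50.6), Cd36 (23.9), Plin5 (18.8), Plin3 (12.1), Cidec (7.52), Cidea (1.38), Mogat1 (1.08) and Plin4 (1.005). Hsd17b13 and Plin2 overlapped among these mice, as did Cideb and Cd36. The range of Cd36, from 10.4 to 43.5, took in those of Plin5 and Plin3, which did not overlap each other. Cidec, from 1.80 to 11.4, overlapped Plin3 and Cidea, and the last 3 overlapped each other. The deposited FPKM values, also scaled for length, gave another order. Their young ND means were 22.8 for Plin2, 19.7 for Cideb and 16.6 for Hsd17b13. Cd36, at 0.762, was below Plin5 (7.36), Plin3 (3.17) and Cidec (1.33), and Cidea (0.0666) and Mogat1 (0.0636) were lowest. In old HFD the highest member was 89.5 times the lowest and Cidea stood at 18.4 CPM per kb, within the range of Cidec (20.03) and Plin5 (18.2). By FPKM, Cidea ran in old HFD from 0.444 to 1.68, below Cidec, from 1.85 to 4.58, and Plin5, from 4.06 to 9.93.

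**Figure D1:**
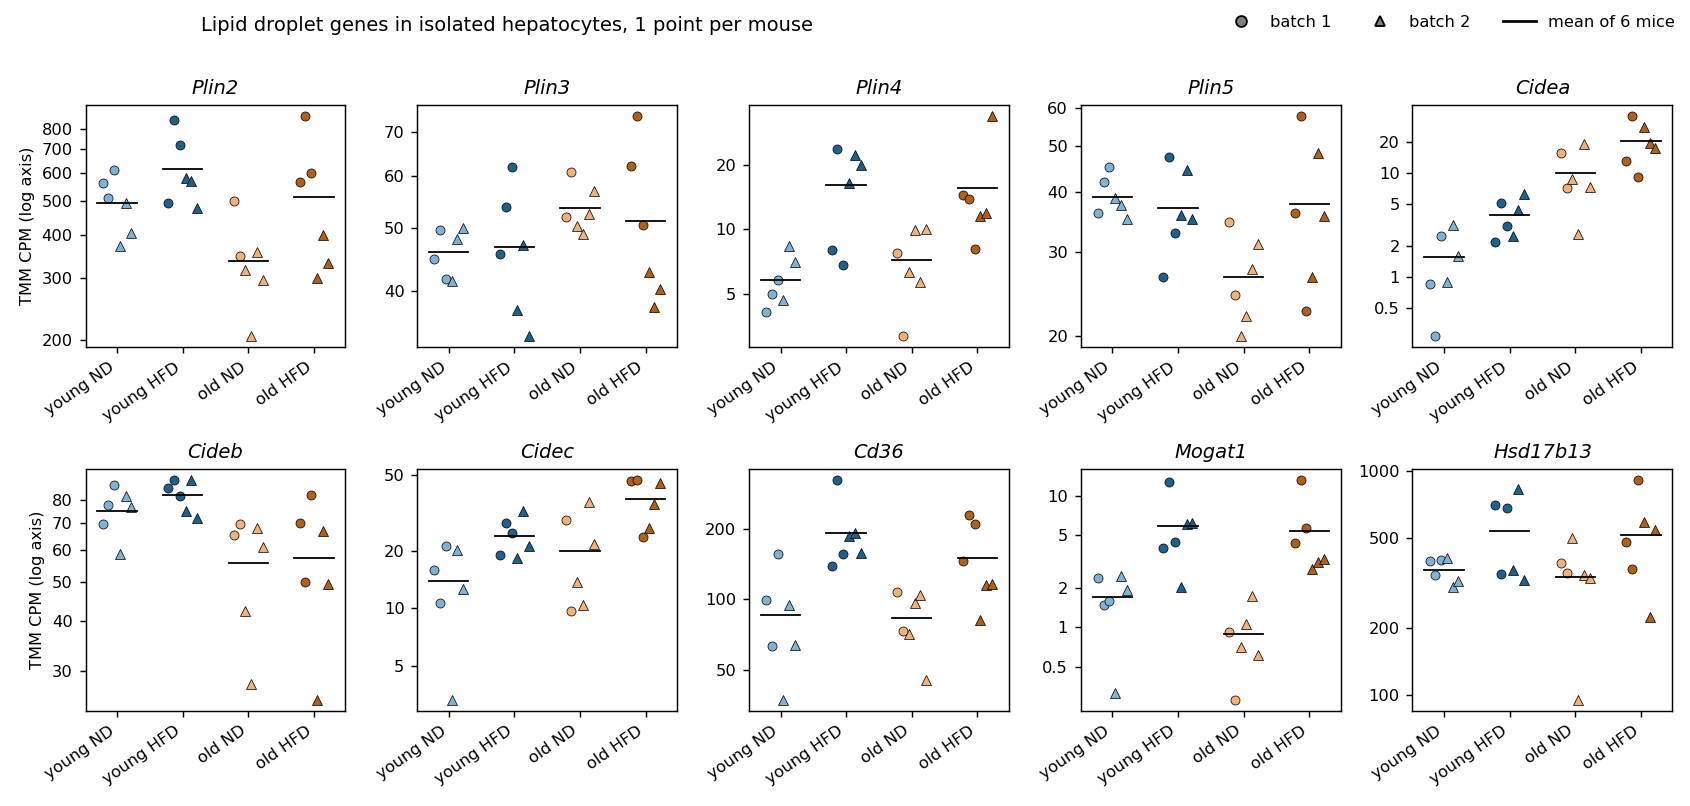
Each panel shows 1 of the 10 genes, with 1 point per mouse as CPM scaled by TMM on a log axis that differs between panels; circles are batch 1, triangles are batch 2 and lines are means of 6 mice. Every old HFD mouse had more Cidea than every young HFD mouse, and every old HFD mouse had more Mogat1 than every old ND mouse.

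Plin2, the main perilipin of the hepatocyte (ENSMUSG00000028494, mm10, chr4:86648386-86670060, minus strand), is a protein that is stable when bound to fat and is degraded without it. Its level, in CPM scaled by TMM as are all CPM of single genes below, ran in young ND from 371 over a median of 499 to 610.2 and in young HFD from 476 over 573 to 847. In old ND it ran from 206 over 333 to 497 and in old HFD from 301 over 482 to 869.9. All 4 groups overlapped, although 5 of 6 old ND mice were below every young ND mouse. The high-fat diet difference was 0.33 (95% interval -0.02 to 0.67) on the log2 scale in young mice and 0.46 (0.11 to 0.81) in old mice, with adjusted p = 0.266 and 0.117. The old ND against young ND difference was -0.46 (-0.81 to -0.11) with adjusted p = 0.0923. It passed without old HFD mouse 2, at adjusted p = 0.0391, and with the replicate block in place of batch, at adjusted p = 0.0437.

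Plin3, a perilipin that moves between the cytosol and new droplets (ENSMUSG00000024197, chr17:56277476-56292873), varied least of the 10 genes. Young ND mice had a mean of 46.0 CPM ± 3.83 (SD, n = 6) and young HFD mice 46.7 ± 10.3, and old ND mice had 53.6 ± 4.49 and old HFD mice 51.3 ± 14.2. The 2 diet differences were 0.00 (-0.25 to 0.25) in young and -0.14 (-0.41 to 0.13) in old mice on the log2 scale, and its age differences were 0.26 (0.00 to 0.53) on normal diet and 0.13 (-0.14 to 0.39) on high-fat diet.

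Plin4, a perilipin of adipocytes and muscle that covers small, new droplets (ENSMUSG00000002831, chr17:56100591-56109803, minus strand), was low and was the perilipin with the clearest diet difference. It ran in young ND from 4.11 over a median of 5.37 to 8.31 CPM and in young HFD from 6.77 over 18.2 to 23.6. In old ND it ran from 3.17 over 7.03 to 10.04 and in old HFD from 8.05 over 12.9 to 33.6. Of the young HFD mice 4 were above every young ND mouse while the other two, both of batch 1, lay within the young ND range. Of the old HFD mice 5 were above every old ND mouse. Plin4 was higher on the high-fat diet by 1.46 ± 0.31 (log2 difference ± SE, adjusted p = 0.0106) in young mice and by 1.21 ± 0.31 (adjusted p = 0.0317) in old mice. Within batch 1 and batch 2 the differences were 1.38 and 1.57 in young mice and 1.10 and 1.27 in old mice. The old difference did not pass the test without old ND mouse 2, 3 or 5 or without old HFD mouse 2 or 6, with adjusted p from 0.0518 to 0.0895. It also missed the threshold with the batch term left out (adjusted p = 0.0726) and with the old groups fitted alone (adjusted p = 0.2198). The same held with the replicate block in place of batch (0.0637) and without old ND mice 3 and 4 together (0.0622). On the deposited FPKM values limma gave 0.0838 on log2(FPKM + 1) and 0.0673 on log2(FPKM + 0.1), and each batch alone missed it too. The call was kept with RLE scaling, without the filter on low counts and with DESeq2 (0.00485). Its exons share 17 of 5777 bases with Hdgfl2 on the other strand.

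Plin5, a perilipin that ties droplets to mitochondria (ENSMUSG00000011305, chr17:56111601-56117596), ran in young ND from 35.2 over a median of 38.3 to 45.1 CPM and in old ND from 20.03 over 26.0 to 34.6. These groups did not overlap, every old ND mouse lying below every young ND mouse. The difference of -0.54 (-0.93 to -0.16) on the log2 scale missed the threshold, with adjusted p = 0.0730. It passed without old ND mouse 1 or without old HFD mouse 2 or 3, with adjusted p from 0.0331 to 0.0492. It also passed with the 2 groups fitted alone (0.0198), without the filter on low counts (0.0084) and with the replicate block in place of batch (0.0406). In those fits 10.8%, 6.35% and 9.94% of all genes were called. It missed the threshold with DESeq2 (0.0751), and also with RLE scaling, without the batch term, with limma and in each batch alone. On the high-fat diet the young mice had from 26.7 over 35.5 to 47.5 CPM and the old mice from 22.6 over 36.0 to 57.7, with an old against young difference of 0.03 (-0.35 to 0.41). The diet difference was -0.08 (-0.46 to 0.31) in young and 0.49 (0.11 to 0.88) in old mice, with adjusted p = 0.870 and 0.127. The old value passed without old HFD mouse 3, at adjusted p = 0.0370. The difference between these diet differences was 0.57 ± 0.26, with unadjusted p = 0.0405 and adjusted p = 0.532.

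Cidea (ENSMUSG00000024526) is a droplet-fusion protein that is scarce in the lean liver and abundant in brown fat. It ran in young ND from 0.269 over a median of 1.25 to 3.15 CPM, or from 4 to 55 counts, and in young HFD from 2.18 over 3.76 to 6.29. In old ND it ran from 2.61 over 8.07 to 19.1 and in old HFD from 9.26 over 18.7 to 35.4 CPM. The old HFD mice lay above every young mouse of either diet, and 5 of 6 old ND mice lay above every young ND mouse. Cidea was higher in old than in young mice by 2.71 ± 0.47 on normal diet (adjusted p = 0.00293) and by 2.38 ± 0.44 on high-fat diet (adjusted p = 0.00874). Both calls held without any 1 of the 24 mice, with adjusted p up to 0.0104 and 0.0357. Within batch 1 and batch 2 the differences were 3.28 and 2.33 on normal diet and 2.42 and 2.29 on high-fat diet. The call on normal diet was lost on the deposited FPKM values with limma on log2(FPKM + 1), at adjusted p = 0.0818.

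The diet difference of Cidea was 1.37 ± 0.47 in young mice (adjusted p = 0.0962) and 1.04 ± 0.42 in old mice (adjusted p = 0.152), and neither passed the test. In young mice it passed with DESeq2, at adjusted p = 0.0297, and with the 2 groups fitted alone, at adjusted p = 0.0341, where 8.23% and 18.6% of all genes were called. Without the filter on low counts it passed in both ages, at adjusted p = 2.18e-07 and 0.00014. Old HFD against young ND, in which diet, age and substrain all differ, gave 3.75 ± 0.48 (adjusted p = 3.53e-05). The difference between the diet differences was -0.32 with an interval from -1.61 to 0.96.

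RNA of other liver cells moved with the age difference of Cidea on normal diet. All 11 macrophage markers were called higher in the old of the ND-fed mice (median log2 difference 3.60), as were 7 of 8 stellate (1.98), 6 of 9 endothelial (1.503) and 3 of 5 tested markers of other leukocytes (3.53). Clec4f, a lectin of Kupffer cells, averaged 9.29 CPM in young ND and 78.0 in old ND. Between the ages on high-fat diet 0 of the 11 macrophage markers were called, with a median difference of 1.09 and all 11 above 0. From old ND mouse 1 to mouse 6 the macrophage sums were 109, 124, 906, 1242, 111 and 61.3 CPM, and Cidea was 15.5, 7.19, 8.85, 2.61, 19.1 and 7.28 CPM. Mouse 4, with the highest macrophage sum and the lowest Cidea, also had the lowest hepatocyte marker sum, at 59297 CPM. The part of these cells in the Cidea difference was not tested.

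**Figure D2:**
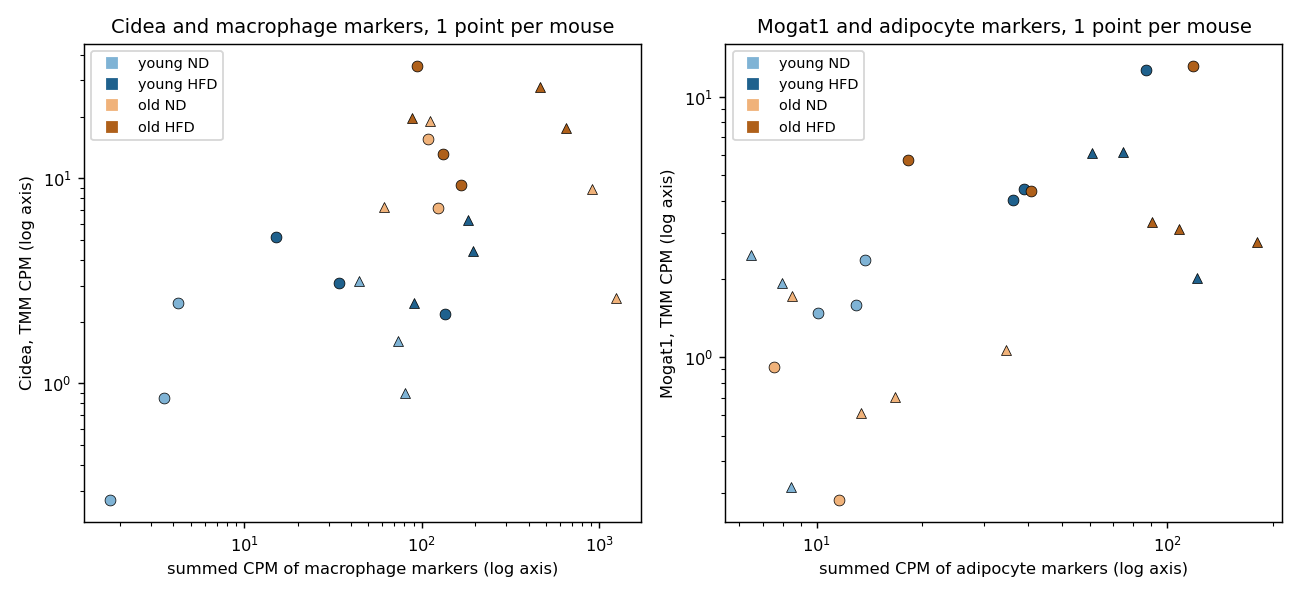
On the left, Cidea CPM is plotted against the summed CPM of 11 macrophage markers and on the right Mogat1 CPM against the summed CPM of 8 adipocyte markers, both on log axes, with 1 point per mouse coloured by group and circles for batch 1, triangles for batch 2. Macrophage sums ran from 1.75 to 80.5 CPM in young ND and from 61.3 to 1242 CPM in old ND, so that these groups differ on both axes of the left side.

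Cideb, the CIDE protein of the normal hepatocyte, which also serves the loading of lipoproteins with fat (ENSMUSG00000022219, chr14:55754050-55758458), had its lowest values in old mice. It ran from 58.5 over a median of 77.2 to 87.0 CPM in young ND and from 72.0 over 83.7 to 89.7 in young HFD, but from 27.9 over 63.3 to 69.7 in old ND and from 25.5 over 58.5 to 82.1 in old HFD. The groups overlapped, and 5 of 6 old HFD mice were below every young HFD mouse. The old against young differences were -0.40 (-0.81 to 0.01) on normal diet and -0.54 (-0.95 to -0.13) on high-fat diet on the log2 scale, with adjusted p = 0.238 and 0.130. Its diet differences were 0.13 (-0.28 to 0.53) in young and -0.02 (-0.43 to 0.40) in old mice. Of its 1488 exon bases 1136 also lie in exons of Nop9 on the opposite strand, and the handling of strand is not given in the sources used here. Its counts may therefore include Nop9 reads or leave out reads from the shared bases, and are uncertain.

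Cidec, the CIDE protein of white fat and of steatotic liver (ENSMUSG00000030278, chr6:113424634-113435760), ran from 3.33 over a median of 14.3 to 21.2 CPM in young ND and from 18.3 over 22.999 to 32.1 in young HFD. In old ND it ran from 9.65 over 17.7 to 35.9 and in old HFD from 23.6 over 39.9 to 46.9. Every old HFD mouse was above every young ND mouse, while each group overlapped its neighbour on the other diet. The diet difference was 0.78 ± 0.34 in young mice (adjusted p = 0.176) and 0.87 ± 0.34 in old mice (adjusted p = 0.139), and the old HFD against young ND difference was 1.42 ± 0.34 (adjusted p = 0.00429).

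Within the CIDE family the share of the summed CPM per kb differed between the groups, and is given as a description. Cideb held 85.7% ± 5.29 (SD, n = 6) of it in young ND mice and 77.3% ± 3.64 in young HFD mice, and 66.7% ± 8.58 in old ND mice and 49.4% ± 15.1 in old HFD mice. Cidea held 2.21% ± 1.30, 4.93% ± 2.09, 14.8% ± 5.08 and 24.6% ± 12.8 in the same order, and Cidec 12.1% ± 4.57, 17.8% ± 2.37, 18.5% ± 5.19 and 26.0% ± 5.73. Every old mouse had a larger Cidea share of the summed CPM per kb than every young mouse. Cidea per kb exceeded Cideb in 1 old HFD mouse and in no other mouse, and exceeded Cidec in 2 old ND and 2 old HFD mice. On the deposited FPKM values Cidea was below both Cideb and Cidec in every mouse. Mean FPKM in old HFD mice was 0.890 for Cidea, 14.9 for Cideb and 3.59 for Cidec. The shares thus depend on the measure of length, and also on the uncertain Cideb counts. The family total was 59.5 ± 10.6 CPM per kb in young ND mice, 71.7 ± 7.64 in young HFD mice, 57.3 ± 20.03 in old ND mice and 76.9 ± 11.8 in old HFD mice, with overlap of all 4 groups. Among the perilipins Plin2 kept the largest share, with group means between 76.6% and 84.0%.

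**Figure D3:**
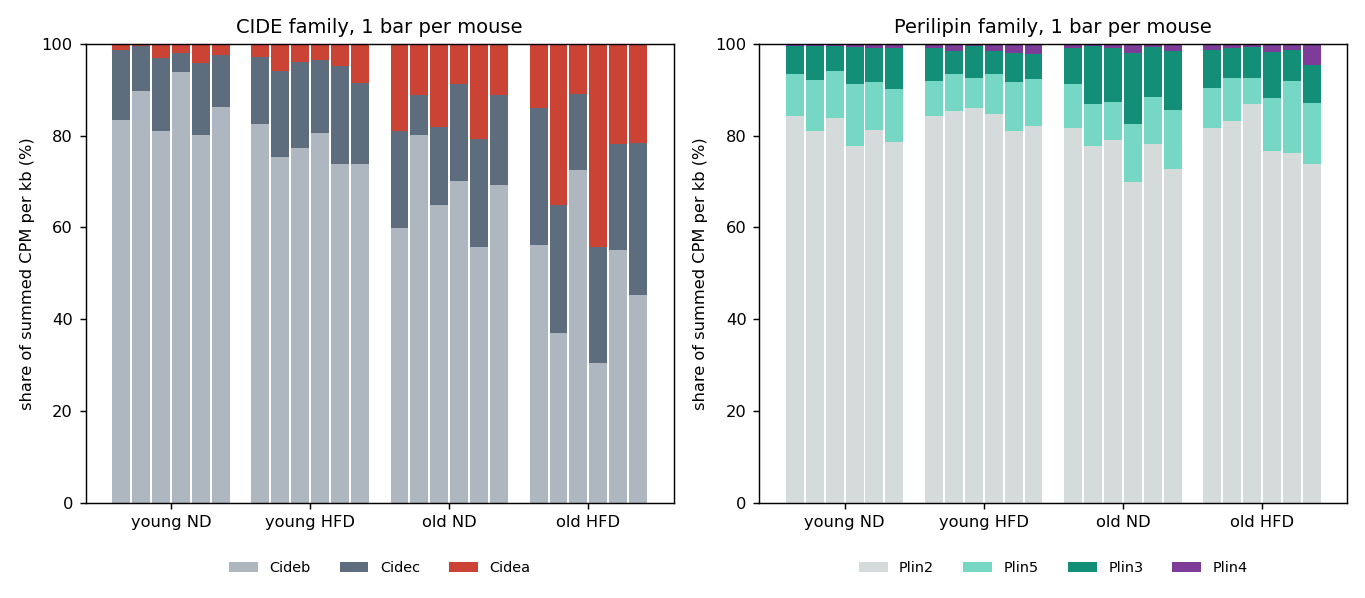
Each bar is 1 mouse, in order of replicate number within its group, and shows the percent of the family's summed CPM per kb held by each CIDE gene (left) and each perilipin (right). The Cidea share lies between 0.414% and 4.12% in young ND and between 10.9% and 44.4% in old HFD.

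Cd36, a membrane protein that takes up long-chain fatty acids (ENSMUSG00000002944, chr5:17781690-17888801, minus strand), ran from 37.4 over a median of 79.2 to 156 CPM in young ND and from 139 over 171 to 323 in young HFD. In old ND it ran from 45.5 over 84.8 to 107 and in old HFD from 81.7 over 131 to 229. Of 6 young HFD mice 4 were above every young ND mouse, and of 6 old HFD mice 5 were above every old ND mouse. The diet difference was 1.20 ± 0.26 (adjusted p = 0.0149) in young mice and 0.71 ± 0.27 (interval 0.16 to 1.26, adjusted p = 0.125) in old mice. Within batch 1 and batch 2 it was 0.96 and 1.47 in young mice and 1.06 and 0.41 in old mice. With the batch term left out the young Cd36 difference was 1.16 with adjusted p = 0.0515. The difference between young and old was not itself called, at -0.50 with an interval from -1.27 to 0.27.

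Mogat1, an enzyme that joins a fatty acid to monoacylglycerol and so feeds triglyceride synthesis (ENSMUSG00000012187, chr1:78510991-78538173, plus strand), was near the lower end of detection on normal diet. It ran from 0.318 over a median of 1.76 to 2.46 CPM in young ND, or from 6 to 50 counts, and from 0.282 over 0.812 to 1.72 CPM in old ND, or from 4 to 24 counts. On the high-fat diet it ran from 2.01 over 5.29 to 12.8 CPM in young and from 2.76 over 3.84 to 13.2 CPM in old mice. The old groups did not overlap, and 5 of 6 young HFD mice were above every young ND mouse. Mogat1 was higher on the high-fat diet by 1.78 ± 0.46 (adjusted p = 0.0353) in young mice and by 2.42 ± 0.50 (adjusted p = 0.0129) in old mice. Within batch 1 and batch 2 the differences were 1.96 and 1.63 in young mice and 3.62 and 1.60 in old mice. The young value missed the threshold without young ND mouse 1, 2, 3 or 4 or young HFD mouse 2, 5 or 6, with adjusted p from 0.0672 to 0.0869, while the old value passed without any 1 mouse. With the batch term left out the young Mogat1 value had adjusted p = 0.0614, and with the old groups fitted alone the old value had adjusted p = 0.1485. With limma on log2(FPKM + 1) neither passed, at adjusted p = 0.0795 in young and 0.0742 in old mice. The gene shares 200 of 1558 exon bases with BC035947 on the other strand, which averaged 0.186 CPM.

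The 3 members called higher on the high-fat diet in young mice are shown by the 250 bases before their RefSeq start (GRCm38.p6, the mm10 build), 5′ to 3′ in the direction of the gene. Capitals mark matches to AGGTCA, the core letters of sites for nuclear receptors such as the PPARs, or to 2 copies of AGGTCA with 1 base between them, a direct repeat named DR1, with up to 2 mismatches and on either strand. The Mogat1 stretch is chr1:78510810-78511059 on the plus strand, that of Cd36 is chr5:17835897-17836146 on the minus strand and that of Plin4 is chr17:56109783-56110032 on the minus strand.
Mogat1: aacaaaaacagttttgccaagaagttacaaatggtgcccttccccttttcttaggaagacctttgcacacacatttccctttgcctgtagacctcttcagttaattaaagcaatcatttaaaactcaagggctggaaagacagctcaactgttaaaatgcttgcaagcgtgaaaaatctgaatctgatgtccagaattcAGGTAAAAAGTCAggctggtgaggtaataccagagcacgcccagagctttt
Cd36: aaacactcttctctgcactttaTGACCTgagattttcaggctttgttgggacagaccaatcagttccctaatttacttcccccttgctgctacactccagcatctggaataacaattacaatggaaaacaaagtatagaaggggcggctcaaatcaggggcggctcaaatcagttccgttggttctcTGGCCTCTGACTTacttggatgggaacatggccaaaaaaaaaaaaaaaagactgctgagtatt
Plin4: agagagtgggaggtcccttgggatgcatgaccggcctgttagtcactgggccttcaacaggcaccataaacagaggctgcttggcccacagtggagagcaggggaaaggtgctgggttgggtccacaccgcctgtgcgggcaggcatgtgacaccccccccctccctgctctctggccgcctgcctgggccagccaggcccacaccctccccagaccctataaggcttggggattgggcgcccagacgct

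In a window from 250 bases before to 50 after the start, a DR1 match lay 51 bases before the start of Mogat1, 63 before that of Cd36 and 225 before that of Plin2, each with 2 mismatches. The Plin4 window held none of the motifs searched, which says only that these letters are not there. Of 32851 RefSeq promoters of that length 3.86% held a DR1 match, 16.3% held AGGTCA on either strand and 13.6% held TATAAA. A promoter was found for 9 of the 10 members, 11 promoters in all, and Cidea had no entry. AGGTCA occurred in windows of Cd36, Plin2, Plin5 and Hsd17b13, and TATAAA in that of Cideb. The AGGTCA match in Plin2 overlaps its DR1.

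Hsd17b13, a droplet-bound dehydrogenase of hepatocytes (ENSMUSG00000034528, chr5:103955440-103977410), is known from human genetics of fatty liver disease. It ran from 304 over a median of 368 to 407 CPM in young ND mice and from 325 over 520.0 to 829 in young HFD mice. It ran from 95.8 over 348 to 503 CPM in old ND mice and from 224 over 514 to 910.4 in old HFD mice. All groups overlapped, and 3 of 6 mice on the high-fat diet were above every normal-diet mouse of their age in both ages. Its diet differences were 0.58 (-0.06 to 1.22) in young and 0.58 (-0.06 to 1.23) in old mice, with adjusted p = 0.293 and 0.279. Its age differences were -0.07 (-0.71 to 0.57) on normal diet and -0.06 (-0.70 to 0.57) on high-fat diet.

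Set side by side, young HFD against young ND called 3 of the 10 members, all higher, where 3.5% of all genes tested were called and 1.91% were called higher. Old HFD against old ND called 2, both higher, where 3.01% of all genes were called and 1.37% were called higher. The median log2 diet difference of the 10 members was 0.68 in young and 0.64 in old mice, beside 0.01 and -0.01 over all genes tested, and 8 of 10 were above 0 in each. At an unadjusted p under 0.05 there were 5 members in young and 7 in old mice, all higher, beside 21.2% and 22% of all genes. No member had groups that did not overlap between the diets in young mice (4.83% of all genes) and 1 did in old mice (1.26%).

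Old ND against young ND called 1 member, Cidea, where 8.5% of all genes were called and 7.26% were called higher, and old HFD against young HFD called the same member, where 2.24% were called and 1.82% were called higher. The members' median log2 age difference was 0.00 on normal diet and -0.06 on high-fat diet. Plin5 was the 1 member without overlap on normal diet (3.8% of all genes) and Cidea the 1 on high-fat diet (0.802%). Old HFD against young ND called Plin4, Cidea, Cidec, Cd36 and Mogat1, all higher, where 30.2% of all genes were called and 17.3% were called higher. In that comparison the log2 differences were 1.41 for Plin4, 0.79 for Cd36 and 1.60 for Mogat1, with adjusted p = 0.00219, 0.0263 and 0.0128. Cd36 lost this call without young ND mouse 2 or 4 or old HFD mouse 2, at adjusted p from 0.0630 to 0.0670. In the same comparison Cidea, Cidec and Mogat1 had groups that did not overlap (7.26% of all genes). Markers of other cells moved with it, as 10 of 11 macrophage, 8 of 9 endothelial, 6 of 8 stellate, 4 of 5 tested leukocyte and 2 of 3 tested adipocyte markers were called higher there, and of 9 hepatocyte markers 4 were called lower and 1 higher. Their part in the members' differences was not tested. These comparisons share groups of mice and are given side by side.

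A test of whether the diet difference itself differed between young and old mice called 0 of the 10 members and 0 of the 13583 genes with edgeR. At an unadjusted p under 0.05 it gave 1 member, Plin5, beside 9.18% of all genes, and DESeq2 called 0 members and 7 genes in all. The intervals of this difference reached from -0.72 to 2.01 for Mogat1 and from -1.13 to 0.63 for Plin4 on the log2 scale.

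**Figure D4:**
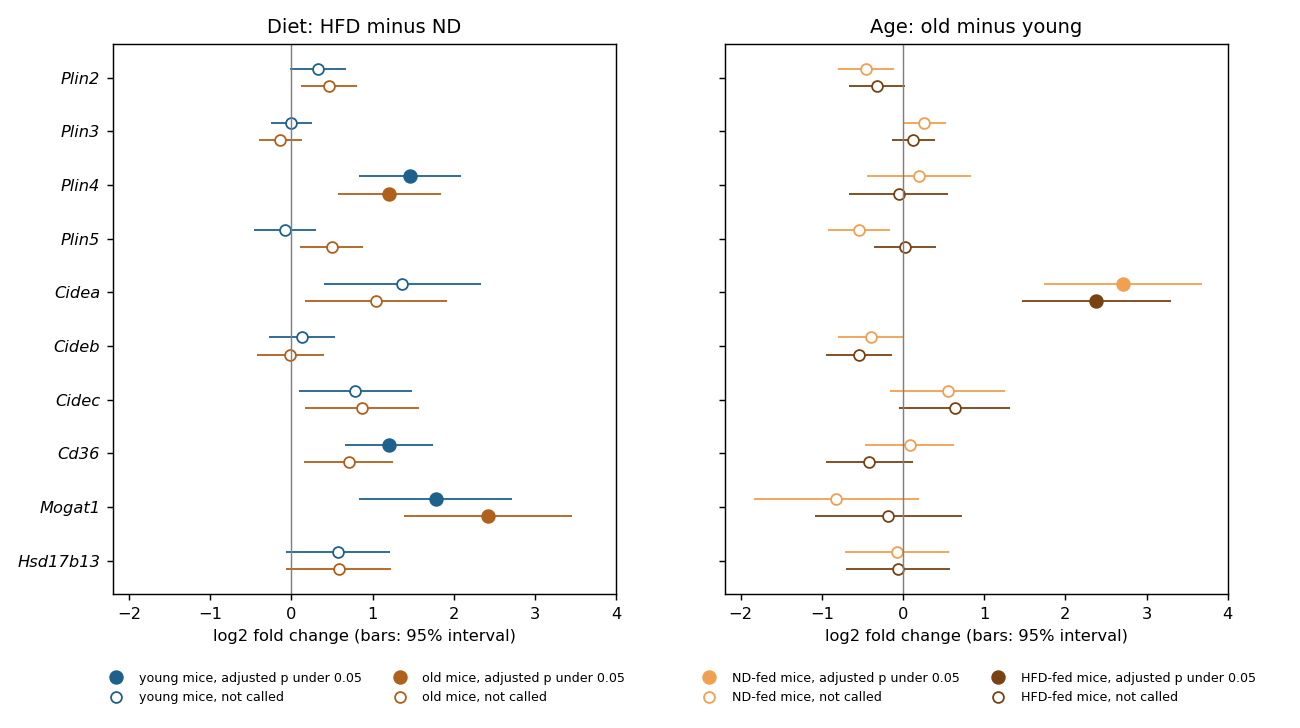
Points are log2 differences of the 10 genes from the model of all 24 mice and bars are 95% intervals, with diet differences on the left and age differences on the right; filled points passed an adjusted p of 0.05. Plin4 and Mogat1 passed for diet in both ages, Cd36 in young mice, and Cidea for age on both diets.

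Markers of fat cells were measured beside the diet differences, since Plin4, Cidea, Cidec and Cd36 are also genes of adipocytes. The sum of 8 adipocyte markers ran from 6.47 to 13.7 CPM in young ND mice, from 36.3 to 122 in young HFD mice, from 7.56 to 34.6 in old ND mice and from 18.2 to 181 in old HFD mice. Of the 3 adipocyte markers tested 2, Cfd and Fabp4, were called higher in young HFD (median log2 difference 1.99) and 1, Cfd, in old HFD (1.02). Cfd, a complement factor, averaged 3.70, 57.6, 2.71 and 72.3 CPM in those groups and was called higher on the high-fat diet by 3.95 in young and 4.73 in old mice on the log2 scale. Plin1, the perilipin of the mature fat cell, and Lep, which encodes leptin, had 0 counts in all 24 mice, and Adipoq, which encodes adiponectin, had at most 3 counts in any mouse. Of the 11 macrophage markers 1, Cd5l, was called higher on the high-fat diet in young mice and 0 in old mice, with median log2 differences of 2.23 and -0.24. Stellate markers were called higher for 2 of 8 in young mice, with all 8 above 0 and a median of 1.53, and endothelial markers for 1 of 9, with all 9 above 0 and a median of 1.45. In old mice 0 stellate and 0 endothelial markers were called, with medians of -0.19 and -0.01. Of the 5 tested markers of other leukocytes and the 2 of bile duct cells 0 were called in either age, with medians of 2.02 and 0.67 in young and 0.21 and 0.19 in old mice. The part of these cell types in the members' diet differences was not tested.

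The other genes of droplet and triglyceride metabolism were taken from 5 lists by function. Of 10 genes of droplet lipolysis 1 was lower in young HFD and 2 were higher in old HFD, with median log2 diet differences of 0.07 and 0.20. Ces1d, a lipase of the hepatocyte, fell from a mean of 1130 to 608 CPM in young mice (log2 difference -0.89, adjusted p = 0.0327), with no overlap between the groups, a call lost in 8 of 24 fits that left out 1 mouse. Abhd6, a monoacylglycerol lipase, was lower in old ND against young ND, at -0.74 (adjusted p = 0.00362), again with no overlap. Abhd5, the co-activator of the main triglyceride lipase, differed from young ND in old HFD, by -0.58 (adjusted p = 0.00781).

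Of 14 tested genes of triglyceride synthesis 2 were higher and none lower in young HFD, and none of the 14 was called in old HFD against old ND. Gpat3, which adds the first fatty acid to glycerol phosphate, averaged 3.83 CPM in young ND and 10.3 in young HFD, a log2 difference of 1.46 (adjusted p = 0.0169), and 4.47 and 8.55 CPM in old ND and old HFD, a difference of 1.02 (adjusted p = 0.0788). Gpat2, of the same family, was called at 2.46 in young HFD (adjusted p = 0.0404) and at 2.18 in old ND (adjusted p = 0.0406) against young ND, from a mean of 0.208 CPM there with some mice at 0 counts, so that these fitted values depend on the prior count. Agpat2, which acts in the next step, was lower in old ND against young ND, at -0.55 (adjusted p = 0.0161).

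Among 14 tested genes of droplet formation and coat none was called in young HFD, and 2 were higher and 1 lower in old HFD. Vps13c, a lipid transfer protein, was the lower one, at -0.99 (adjusted p = 0.0472), a call lost in 19 of 24 fits that left out 1 mouse. It was also lower in old HFD against young ND, at -1.28 (adjusted p = 0.00195), as were the droplet hydrolase Ldah, at -0.71 (adjusted p = 0.00122), and Faf2, at -0.31 (adjusted p = 0.0201).

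Of 16 genes of fatty acid uptake and activation 2 were higher and 1 lower in young HFD, and 4 were higher and 1 lower in old HFD. Vldlr, a receptor for triglyceride-rich lipoproteins, averaged 1.56 CPM in young ND and 7.75 in young HFD, and 1.89 and 9.56 in old ND and old HFD, log2 differences of 2.47 (adjusted p = 0.00118) and 1.82 (adjusted p = 0.0202). Fabp4, a fatty acid binding protein of adipocytes and macrophages, was higher by 1.99 both in young HFD (adjusted p = 0.0455) and in old ND (adjusted p = 0.0261) against young ND, and the former call was lost in 13 of 24 fits that left out 1 mouse. Lpl, the lipase that releases fatty acids from lipoproteins, was higher in old ND against young ND, by 2.64 (adjusted p = 0.00962), beside the macrophage markers given above.

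Of 12 regulators of droplet genes 1 was lower in young HFD and 1 was higher in old HFD. Pparg, a nuclear receptor that drives many of the members in fat cells and in steatotic liver, was called in no comparison. It averaged 22.3 CPM ± 5.16 (SD, n = 6) in young ND mice, 15.7 ± 3.66 in young HFD mice, 16.4 ± 3.43 in old ND mice and 16.9 ± 5.83 in old HFD mice, with a diet difference of -0.51 (-0.93 to -0.09, adjusted p = 0.145) in young and 0.03 (-0.40 to 0.46, adjusted p = 0.963) in old mice. Ppard, the receptor PPAR delta, was the lower one in young HFD, at -1.91 (adjusted p = 0.0264), lost in 6 of 24 fits that left out 1 mouse. Creb3l3, a membrane-bound factor of the fasting liver, was the higher one in old HFD, at 0.50 (adjusted p = 0.0309). Hnf4a, a master factor of hepatocyte identity, was lower in old HFD against young ND, at -0.73 (adjusted p = 0.00534).

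**Figure D5:**
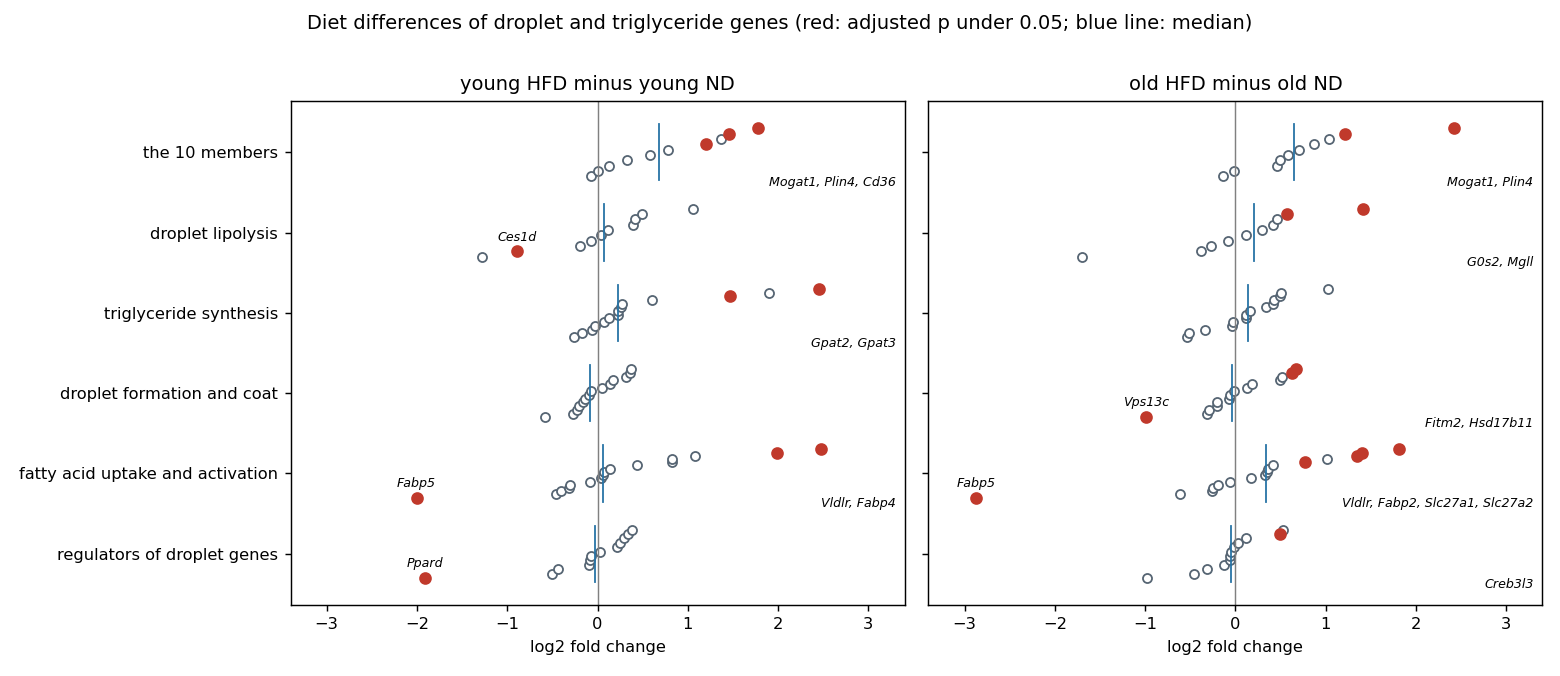
Each point is the log2 diet difference of 1 tested gene in young (left) and old mice (right), by gene list, with red points for genes past an adjusted p of 0.05, named in the panel, and a blue line for the median of the list. The median of the 10 members was 0.68 and 0.64, and those of the 5 other lists lay between -0.08 and 0.34.

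Some mice were high or low in many members at once. Old HFD mouse 2 was the highest of its group in 7 of the 10 genes and young HFD mouse 2 in 6, among them Plin2, Plin5, Cd36 and Mogat1 in both mice. Young ND mouse 4 was the lowest of its group in 6 genes and old ND mouse 4 in 5. Over the 24 mice, with batch means removed, the members most alike were Cd36 and Mogat1 (Pearson r = 0.831), followed by Plin4 with Mogat1 (0.768), Plin4 with Cd36 (0.758) and Cidea with Cidec (0.733), and the least alike were Cidea and Cideb (-0.338). These correlations include the differences between groups and the shared depth of each library, and are given as descriptions.

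Among all genes tested, those most like each member over the same 24 mice were Pctp (r = 0.924) and Aldh3a2 (0.918) for Plin2, Tmem189 (0.853) and Plpp3 (0.841) for Plin4, and Isoc2a (0.794) and Mlycd (0.789) for Plin5. For Plin3 they were Cox7a1 (0.845) and Snrpn (0.786). Cidea was most like Serpinb1a (0.864) and Lncbate1 (0.859), Cideb most like Pcca (0.945) and Hadha (0.935), and Cidec most like Tox (0.745) and Cyp4a14 (0.734). Vnn1 was nearest to both Cd36 (0.898) and Mogat1 (0.863), with Vldlr (0.854) and Lamb3 (0.845) next, and Hsd17b13 was nearest to Defb1 (0.862) and Gpr12 (0.853).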

How the data were processed

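Hepatocyte RNA-seq of 24 mice was analysed. Raw counts for each gene were deposited by the authors, who used STAR 2.7.3a on mm10 (GENCODE), SAMtools filtering and HTSeq 0.11.2. They also deposited FPKM values from CuffLinks, adjusted for batch with ComBat according to the deposited table's name. Strand handling is not given in the sources used here. Ages, substrain and chow follow the sample labels. The paper states other ages and another normal diet, and names no substrain. Replicates are separate mice by the labels.

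Counts were tested with edgeR 4.0.16 (R 4.3.3): TMM scaling, filterByExpr by group, group and batch as terms over all 24 mice, quasi-likelihood F tests, and Benjamini-Hochberg adjustment over all 13583 genes at 0.05. DESeq2 1.42.0 and limma 3.58.1 were alternatives, the latter on log2(FPKM + 1) and log2(FPKM + 0.1). Intervals are 95%. CPM per kb used union exon lengths. Correlations used log2 CPM with a prior count of 2. In simulated counts for the young diet comparison over 13583 genes, 60% of the genes changed by 1 on the log2 scale and 77% of those changed by 2 were called, and 6.16% of calls were false. For the interaction over 13583 genes 36% and 74% were called, with 3.51% of calls false. The simulated counts held no batch effect and no differences in cell content, and the changed genes were picked at random. These rates therefore do not describe the real comparisons or members with low counts.

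The members and gene lists were chosen with earlier results of these data known. The text names all members, Pparg, the 3 genes of each function list with the smallest adjusted p in any comparison, the highest marker of each cell type where one is discussed, and the 2 genes nearest each member. Other genes were named after their values were seen. Replicate numbers came from the labels and were not used to pair the mice in the main fit.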

Additional observations from a re-analysis of the deposited data

Results flagged for a closer look

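In each group of 6 mice the highest and the lowest log2 CPM of each member were compared with the other 5 by the 95% limit of Dixon's test. Of 40 groups tested 2 had a mouse past that limit, and chance gives about 1 in 20. Mogat1 was far lower in young ND mouse 4 than in the other young ND mice, at -1.165 log2 CPM, from 6 counts. The same mouse had the lowest Plin2, Plin3, Cideb, Cidec and Cd36 of its group. Without it the young diet difference of Mogat1 was 1.57 with adjusted p = 0.0716. Hsd17b13 was far lower in old ND mouse 4 than in the other old ND mice, at 6.584 log2 CPM. That mouse also had the highest macrophage marker sum of all 24, at 1242 CPM, and the lowest hepatocyte marker sum, at 59297 CPM.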

How the results depend on the processing

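RLE scaling changed no call of a member, and DESeq2 added Cidea to the members called in young HFD against young ND. Numbers of members called are given next in the order young diet, old diet, age on normal diet, age on high-fat diet and old HFD against young ND, where the main values were 3, 2, 1, 1 and 5. Without a filter on low counts there were 6, 6, 3, 3 and 7, with the batch term left out 1, 1, 1, 1 and 4, and with only the groups compared 4, 0, 2, 1 and 5. The share of all genes called moved too. In the same order it was 3.5%, 3.01%, 8.5%, 2.24% and 30.2% in the main fit, 4.56%, 3.43%, 6.35%, 3.82% and 14.3% of 32336 genes without the filter, 1.28%, 1.96%, 4.62%, 0.854% and 22.4% without batch, and 18.6%, 0.119%, 10.8%, 0.386% and 17.4% with only the groups compared. In the 2 batches alone it was at most 0.96% in the first 4 comparisons, and 6.79% in batch 1 and 4.33% in batch 2 in the last. Batch 1 alone gave 0, 0, 0, 0 and 1, and batch 2 alone gave 0, 0, 0, 0 and 2, with 3 mice or fewer a group in most cases and the same direction for each call. The replicate block in place of batch gave 3, 1, 3, 1 and 5, where 2.08%, 3.28%, 9.94%, 0.964% and 25.6% of all genes were called. The labels do not say whether mice of the same replicate number shared a litter or a day. The deviations of same-numbered mice correlated from -0.32 to 0.551. With limma on log2(FPKM + 1) there were 2, 0, 0, 1 and 5 members, where 1.83%, 1.91%, 0.932%, 0.697% and 21.7% of all genes were called. With limma on log2(FPKM + 0.1) there were 3, 1, 1, 1 and 5, where 2.02%, 2.17%, 3.21%, 0.621% and 22.8% were called. With each mouse left out in turn, the count ranged from 2 to 3 for the young diet, from 1 to 3 for the old diet and from 1 to 3 for age on normal diet. Without old ND mice 3 and 4 together, an alternative chosen after seeing the data, the old diet comparison called 1, where 2.91% of all genes were called. In that fit old ND against young ND still called Cidea, while the share of all genes called there was 0.46%, beside 8.5% in the main fit. The interaction called 0 members in every fit made, and 587 of all 32336 genes (1.82%) without the filter. Among the members called for diet, its sign turned for Plin4 without young HFD mouse 2 (from -0.579 to 0.0644 over all mice left out in turn), for Cd36 in batch 1 alone (0.105), and for Mogat1 in batch 2 alone (-0.0255) and with limma on log2(FPKM + 1) (-0.00137). It also turned for Plin2 (-0.139), Cidec (-0.213) and Hsd17b13 (-0.0584) in batch 2 alone, for Cidec and Hsd17b13 in other fits, most with 1 mouse left out, and for Cidea with limma (0.252 and 0.247). The cause of these changes was not tested. No alternative turned the sign of a called member. Low counts limit Mogat1 and Cidea on normal diet, where 4 counts were seen in the lowest mouse.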
